A study of Mus musculus with 16 samples.

Results

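The immediate early genes described here are Fos, Fosb, Jun, Junb, Egr1, Nr4a1, Klf6, Ier2, Dusp1 and Zfp36, 10 of the 18193 genes that the arrays named. They were taken by name, as every probe set whose only gene symbol is one of these, which gave 15 of 45101 probe sets. Klf6 had 5 probe sets, Jun had 2 and each of the others had 1. All values are log2 intensities, so a difference of 1 is a 2-fold change. The 16 arrays measured mouse haematopoietic stem cells (HSCs) and pluripotent cells, all wild type on a C57Bl6 background. There were 3 arrays of aged steady-state HSCs, from male mice of 21 to 24 months, and 3 of young steady-state HSCs, from male mice of 3 to 4 months. Transplanted HSCs, sorted from recipients that had been given aged or young bone marrow, had 2 arrays per age, and the labels give no age at collection for them. Induced pluripotent stem cells (iPSCs) of aged and of young haematopoietic origin had 2 arrays each, and commercial embryonic stem cells (ESCs) had 2 arrays, 1 from each of 2 suppliers. The iPSCs and ESCs were grown on mouse embryonic fibroblast feeders, and the sources used here give neither the reprogramming factors nor how many clones or mice stand behind an array. The labels call the arrays within a group biological replicates, other than the ESC lines, so the p-values measure the spread between such samples.

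Immediate early genes are transcribed within minutes of a stimulus, without new protein synthesis, because the factors that switch them on are already present and are activated by kinases. Serum response factor with its ternary complex partners, and CREB, which binds cAMP response elements (CREs), are the best known of these. Most of the products are transcription factors, and others end the response by removing phosphates from kinases or by destroying AU-rich mRNAs. In sorted blood cells these transcripts are also known to be sensitive to how cells are handled before lysis.

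The promoters of Fos, Jun, Dusp1, Nr4a1 and Zfp36 are shown as examples of what a search of the start-site windows found. It looked for letters of the CRE type and of a serum response factor site, among others. Which factor binds a match was not tested. Each window runs from 250 bases before to 50 bases after 1 transcript start, on the gene's strand, from RefSeq on GRCm38.p6. Windows were searched for 8 of the 10 genes, all but Egr1 and Ier2. The start used for Nr4a1 lies well inside the annotated gene (chr15:101253902-101274795), and that for Fosb slightly inside its gene, so neither window is at the outermost start. Capitals mark a match on either strand to the CRE TGACGTCA, its variant TGACATCA, the CRE half-site TGACG (read CGTCA on the other strand, and contained on each strand of a full CRE), or the CArG box bound by serum response factor.
Fos, chr12:85473640-85473939, plus strand: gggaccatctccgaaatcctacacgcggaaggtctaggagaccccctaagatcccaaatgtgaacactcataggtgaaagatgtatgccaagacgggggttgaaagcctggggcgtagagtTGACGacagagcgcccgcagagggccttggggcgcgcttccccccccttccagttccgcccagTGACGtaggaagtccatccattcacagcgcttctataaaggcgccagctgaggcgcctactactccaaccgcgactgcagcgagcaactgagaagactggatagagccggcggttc
Jun, chr4:95052173-95052472, minus strand: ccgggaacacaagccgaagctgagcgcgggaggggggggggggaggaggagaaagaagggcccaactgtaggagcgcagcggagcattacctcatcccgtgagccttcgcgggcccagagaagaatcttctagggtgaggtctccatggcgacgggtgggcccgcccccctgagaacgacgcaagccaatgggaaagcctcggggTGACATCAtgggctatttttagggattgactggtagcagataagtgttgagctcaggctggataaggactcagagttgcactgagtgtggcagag
Dusp1, chr17:26508423-26508722, minus strand: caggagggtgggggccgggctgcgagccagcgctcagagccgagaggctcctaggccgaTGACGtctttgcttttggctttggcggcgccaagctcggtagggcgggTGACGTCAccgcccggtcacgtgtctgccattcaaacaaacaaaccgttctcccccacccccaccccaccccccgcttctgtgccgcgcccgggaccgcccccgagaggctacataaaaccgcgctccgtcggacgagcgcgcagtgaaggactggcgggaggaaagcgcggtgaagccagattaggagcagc
Nr4a1, chr15:101266596-101266895, plus strand: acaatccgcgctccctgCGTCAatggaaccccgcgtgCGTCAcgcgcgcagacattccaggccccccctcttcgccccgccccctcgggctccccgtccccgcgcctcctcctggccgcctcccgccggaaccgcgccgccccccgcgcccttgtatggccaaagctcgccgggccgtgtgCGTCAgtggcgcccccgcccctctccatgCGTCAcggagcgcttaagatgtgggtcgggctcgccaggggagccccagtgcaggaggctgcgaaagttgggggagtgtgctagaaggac
Zfp36, chr7:28379179-28379478, minus strand: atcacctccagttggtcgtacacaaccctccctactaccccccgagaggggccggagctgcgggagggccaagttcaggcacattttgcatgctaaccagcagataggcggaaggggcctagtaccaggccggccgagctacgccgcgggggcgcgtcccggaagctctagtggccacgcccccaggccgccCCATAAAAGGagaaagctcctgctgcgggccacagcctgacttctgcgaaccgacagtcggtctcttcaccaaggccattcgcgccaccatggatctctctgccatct

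The half-site was present in 5 of the 8 windows, those of Fos, Fosb, Junb, Dusp1 and Nr4a1, and in 20.8% of 32851 windows of this length. Nr4a1 held 4 half-sites and Fos held 2, while Dusp1 held 3, 2 of which form its full CRE. The full CRE was in 1 of 8 windows and in 1.79% of all windows, and the variant TGACATCA was in 2 of 8, those of Jun and Klf6, and in 3.62% of all. The CArG box was in 1 of 8 windows, that of Zfp36, and in 1.63% of all, and the AP-1 motif TGACTCA, which Fos and Jun dimers bind, was in 0 of 8 and in 5.20% of all. The TATA box letters TATAAA, left in lower case above, were in 2 of 8 windows, those of Fos and Junb, and in 13.6% of all. The match began at -33 from the start used in Fos and at 0, the start itself, in Junb. A match is a description of letters in this window, and its absence says nothing of sites elsewhere. The promoters of Egr1 and Ier2 were not searched, so these counts say nothing of them.

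The arrays matched their labels by defining markers. The 11 HSC markers on the array averaged 11.02 to 11.27 in steady-state HSCs, 9.34 to 9.72 in transplanted HSCs and 5.56 to 5.67 in iPSCs and ESCs, and 11 pluripotency markers averaged 10.51 to 10.75 in iPSCs and ESCs against 4.03 to 4.85 in HSCs. The transplanted arrays stood apart in technical measures. Their 3′ minus 5′ actin control difference was -0.26 to -0.05, against 1.98 to 2.25 in steady-state HSCs, and their 18S ribosomal RNA control read 14.39 to 14.53, against 9.87 to 11.19. Median intensity per array lay between 43.52 and 51.94.

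The member genes varied far more between steady-state HSC replicates than most genes did, and in both ages the array with replicate number 1 was the high one. The labels do not say that a number marks a shared day or sort, so the pattern is given as a description. Nr4a1, an orphan nuclear receptor, read 11.62, 7.69 and 7.29 on the aged arrays 1 to 3, against 10.99, 7.07 and 7.16 on the young arrays 1 to 3. Fosb, a partner of Jun in AP-1, read 11.89, 8.22 and 6.76 in aged HSCs, against 11.09, 8.0 and 7.87 in young HSCs. For both genes replicate 1 lay more than 3 log2 units above the next replicate in each age, and the age groups overlapped.

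Zfp36, which binds AU-rich mRNAs and hastens their decay, read 13.15, 10.93 and 10.12 in aged HSCs, against 12.25, 9.35 and 9.68 in young HSCs. Ier2, a small nuclear regulator, read 12.39, 10.30 and 9.85 in aged HSCs, against 11.65, 9.81 and 9.48 in young HSCs. Egr1, a zinc-finger activator that is known to hold HSCs in quiescence, read 13.92, 12.39 and 11.67 in aged HSCs, against 13.54, 10.78 and 11.33 in young HSCs. Replicate 1 was again the highest of its group for these genes, and the ages overlapped.

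Jun, the core AP-1 subunit, read 13.55, 11.72 and 11.24 in aged HSCs, against 12.75, 10.59 and 10.15 in young HSCs. Junb, an AP-1 subunit that restrains HSC proliferation in mice, read 8.95, 6.97 and 6.51 in aged HSCs, against 7.74, 5.69 and 5.97 in young HSCs. Dusp1, a phosphatase that switches off p38 and JNK kinases, read 13.78, 11.75 and 11.44 in aged HSCs, against 13.57, 11.76 and 11.62 in young HSCs. Each aged array of Jun and Junb was above the young array of the same number, while those of Dusp1 were nearly level, within 0.21 of each other.

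Fos, the AP-1 subunit that pairs with Jun, moved least. It read 14.32, 13.51 and 13.26 in aged HSCs, against 14.25, 13.45 and 13.07 in young HSCs, and replicate 1 was 0.80 above the next array in each age. Klf6, a zinc-finger factor, read 11.47, 9.62 and 9.14 in aged HSCs, against 11.66, 8.91 and 9.22 in young HSCs, on its brightest probe set. The other 4 Klf6 probe sets and the second Jun probe set also had replicate 1 as the highest array in both ages.

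**Figure D1:**
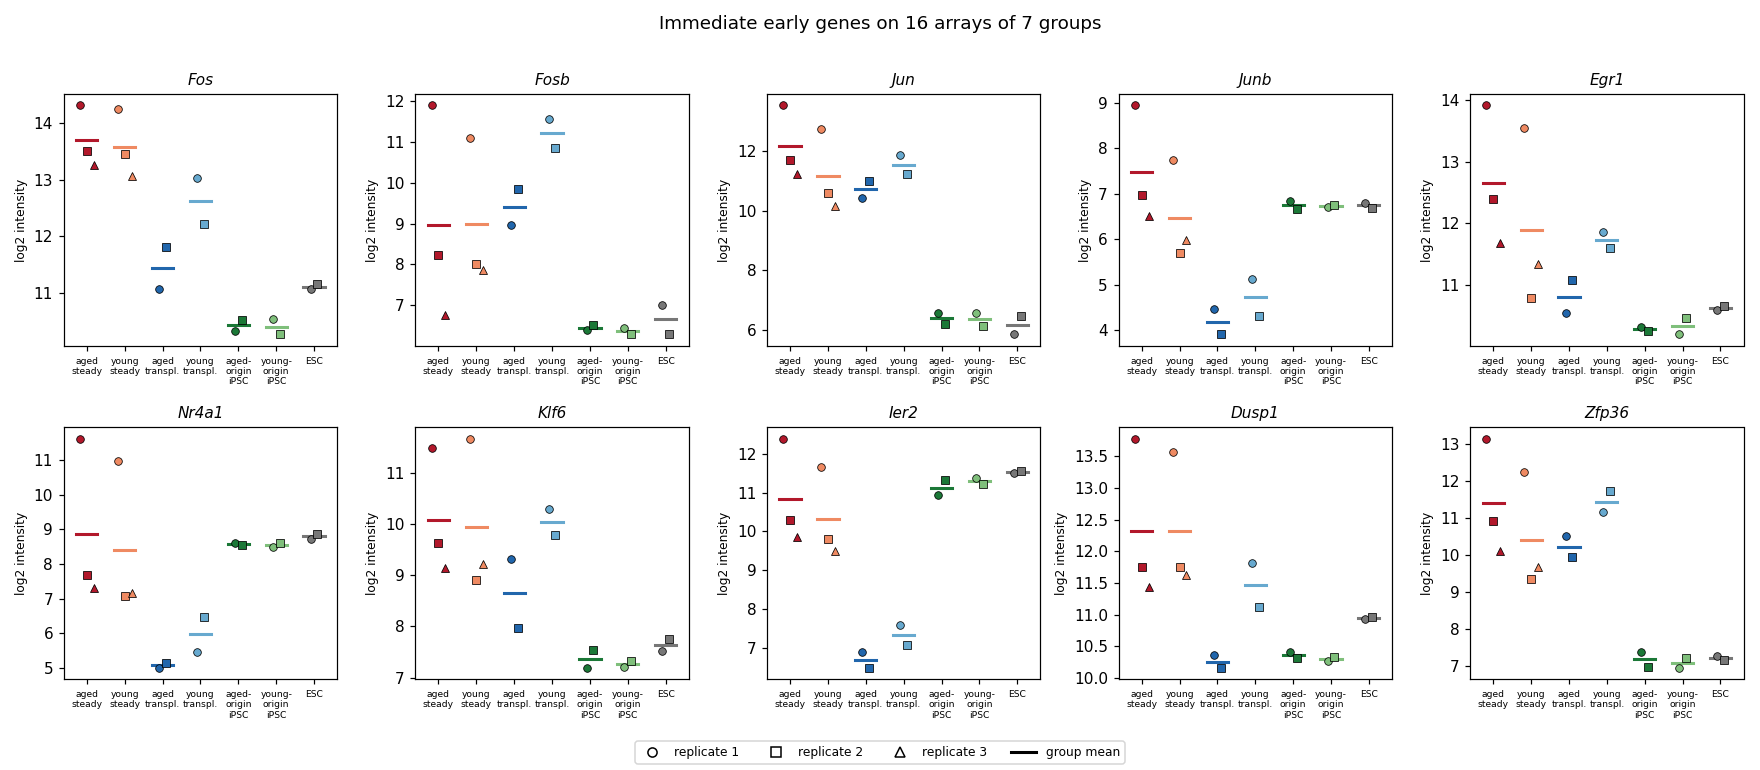
Log2 intensity (vertical axes, a separate scale for each gene) of the 10 genes on all 16 arrays by group (horizontal axes), with the replicate number as the point's shape and the group mean as a line. In both steady-state groups the circle of replicate 1 is the highest point for every gene, while the iPSC points lie close together.

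This pattern was also counted over all genes. The 10 genes and the lists were chosen with earlier results of these data known, so the shares are a description. Replicate 1 was at least 1 log2 unit above both other replicates in both ages for 9 of the 10 genes, all but Fos, and for 21 of 13645 genes tested (0.154%). For replicate numbers 2 and 3 the count was 0 of 13645 genes each, and 16 genes were lower by that margin in replicate 1 of both ages. Of 34 other immediate early genes on a list drawn up by name, 8 were among the 21: Egr2, Klf4, Btg2, Atf3, Klf2, Nr4a2, Socs3 and Rhob. The remaining 4, named here after their values were seen, were Nfkbiz, Rgs2, Ppp1r15a and Rgs1. These are a nuclear regulator of NF-κB, 2 regulators of G-protein signalling and a phosphatase subunit of the stress response.

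Egr2, a relative of Egr1, read 8.54, 5.07 and 4.48 in aged HSCs, against 8.31, 4.05 and 4.84 in young HSCs. Atf3, a stress-induced factor of the CREB family, read 8.18, 4.73 and 4.48 in aged HSCs, against 7.26, 4.41 and 4.29 in young HSCs. In both genes replicate 1 of each age stood clear of the other 4 arrays. Those 4 arrays read near the 25th percentile of genes, 4.57 in aged and 4.57 in young steady-state HSCs. Their levels are thus close to what dim probe sets give. None of 20 upstream kinases and factors, 11 heat shock genes, 11 HSC markers, 8 macrophage markers, 10 neutrophil markers, 6 erythroid markers, 5 B and T cell markers and 5 fibroblast markers met the same margin. Klf2, which also stands on the pluripotency list, was the 1 of its 4 tested members that did.

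Markers of other blood cells also differed between these arrays. The macrophage list was also highest in replicate 1 of both ages, by margins under 0.2 in mean log2. It averaged 6.90, 6.73 and 6.33 on aged arrays 1 to 3, against 6.63, 6.61 and 6.57 on young arrays 1 to 3. Its summed intensity was 3356, 2429 and 1815 on the aged arrays, against 3157, 2036 and 2341 on the young arrays. On each of these arrays 0 of its 10 genes lay below the 25th percentile. The part of this list in the pattern was not tested. The neutrophil list was lowest in replicate 1 of the aged group, at 7.28 against 7.67 and 8.08, and highest in replicate 1 of the young group, at 8.43 against 7.65 and 6.74. The array-level 3′ minus 5′ actin difference was 1.98 and 2.22 in replicate 1 of aged and young HSCs, and 2.11 to 2.25 on the other 4 arrays.

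**Figure D2:**
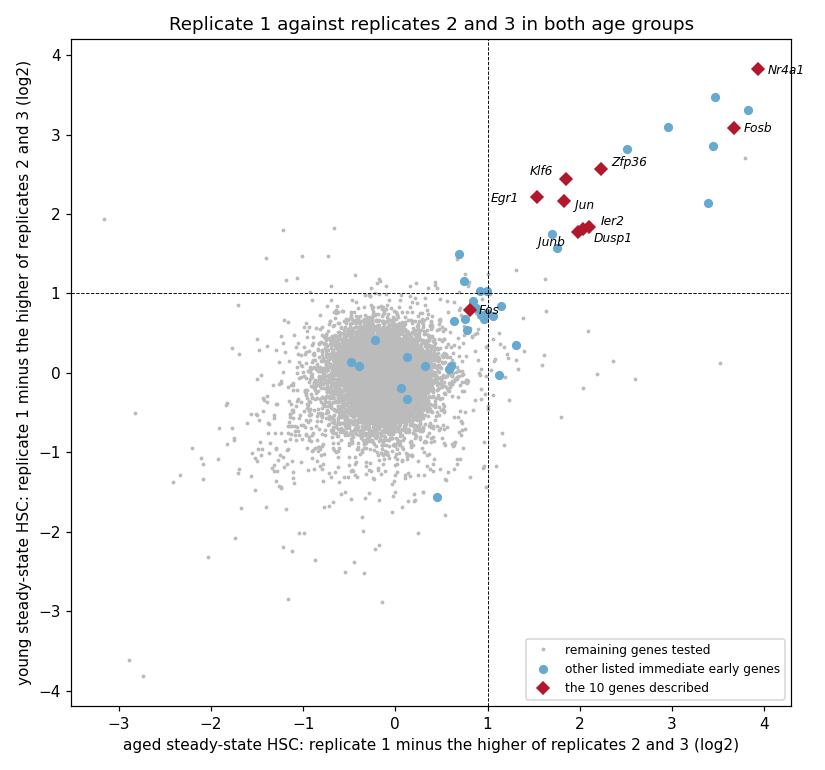
Each point is 1 of 13645 genes, with replicate 1 minus the higher of replicates 2 and 3 (log2) in aged steady-state HSCs on the horizontal axis and in young steady-state HSCs on the vertical axis. The dashed lines mark the 1 log2 margin, and 9 of the 10 genes described lie beyond both, with Fos at 0.80 on each axis.

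The within-group SD puts a number on this spread. Over the 10 genes the SD ran from 0.55 to 2.64 with a median of 1.28 in aged steady-state HSCs, where the median over all genes was 0.15, and from 0.60 to 2.24 with a median of 1.43 in young steady-state HSCs, where that median was 0.17. All 10 were above the 95th percentile of gene SDs in both groups, 0.42 in aged and 0.44 in young HSCs. In aged-origin and young-origin iPSCs 0 of the 10 exceeded that percentile of their own group, and their median SDs were 0.14 and 0.11. In ESCs 2 of the 10 exceeded it, with a median of 0.08 and a highest SD of 0.50. Transplanted HSCs lay between, with 1 of the 10 above it in the aged and 0 in the young group, with median SDs of 0.39 in the aged and 0.47 in the young, where all genes had medians of 0.24 and 0.33.

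Whether steady-state HSCs differ with age is the first comparison of the series. None of the 10 genes was called (limma over all genes, Benjamini-Hochberg adjusted p under 0.05), where 1.18% of 13645 genes were, and 0 of 10 reached an unadjusted p under 0.05, where 6.31% of genes did. The estimates were above 0 for 9 of 10 genes, with a median of 0.50 where the median of all genes was -0.02. Jun averaged 12.17 ± 1.22 in aged and 11.16 ± 1.39 in young HSCs (SD, n = 3 each), a difference of 1.01 with a 95% interval from -0.55 to 2.57 and an adjusted p of 1.000. Junb differed by 1.01 (interval -0.46 to 2.47) and Zfp36 by 0.97 (interval -0.88 to 2.83). The intervals of these 3 genes and of Nr4a1, Fosb, Egr1 and Ier2 (upper ends 3.155, 2.62, 2.32 and 2.03) reached above 2 log2 units. These arrays therefore do not exclude an age difference of 4-fold in any of those genes.

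The median of the set in this comparison moved with single arrays. Without replicate 1 of the aged group it was -0.22, and without replicate 3 of the young group it was -0.02, with 4 and 5 of the 10 genes above 0. Without replicate 2 of the young group it was 0.13, with 6 genes above 0. Without replicate 1 of the young group or replicate 2 or 3 of the aged group it was 1.40, 0.86 and 1.16, with all 10 above 0. Replicate 1 of both ages was also left out, after these genes were seen to be high on it. This lowers the spread of these genes by construction, so the shares of all genes are no like comparison. The median was then 0.40 and 8 genes were above 0. In that fit 0 genes were called, where 0.278% of all genes were, and 4 had an unadjusted p under 0.05, where 3.89% did. Jun then differed by 1.11 (SE 0.33, adjusted p 0.598), Zfp36 by 1.01 (SE 0.36, adjusted p 0.923), Egr1 by 0.97 (SE 0.34, adjusted p 0.885) and Junb by 0.91 (SE 0.35, adjusted p 1.000). Set side by side at the same replicate number, 7 of the 10 genes were higher in the aged array at all 3 numbers, the exceptions being Dusp1, Fosb and Klf6, as were 2020 of 13645 genes.

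Members of the wider pathway were not called either. In limma 0 of the 34 other immediate early genes tested were called in either direction, with a median of 0.22 and 4 at an unadjusted p under 0.05 (6.31% of all genes). Of 20 upstream kinases and factors 0 were called, with a median of 0.03 and 1 at that level.

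In transplanted HSCs the estimates of all 10 genes were below 0, lower in the aged group, but 0 of 10 were called, where 1.35% of genes were. The Fosb estimate was below 0 in steady-state HSCs too, at -0.03. Fos read 11.08 and 11.81 in aged transplanted HSCs, against 13.04 and 12.21 in young transplanted HSCs. Fosb read 8.96 and 9.84 in the aged group, against 11.56 and 10.85 in the young group. Dusp1 read 10.36 and 10.16 in the aged group, against 11.82 and 11.12 in the young group. The groups did not overlap for these genes, nor for any of the 10 other than Junb, which read 4.46 and 3.90 in aged cells against 5.13 and 4.32 in young cells. Among all genes 17.5% were lower in the aged group without overlap.

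Fos differed by -1.18 (95% interval -2.22 to -0.14, adjusted p 0.265) and was the 1 gene of 10 at an unadjusted p under 0.05, where 15.2% of all genes were. Fosb differed by -1.80 (interval -5.05 to 1.44), Klf6 by -1.39 (interval -3.47 to 0.69), Dusp1 by -1.22 (interval -2.95 to 0.52) and Zfp36 by -1.21 (interval -3.48 to 1.06). The median was -1.05, where that of all genes was -0.02. The spread in this fit is estimated from all 10 HSC arrays, the high steady-state ones included. Without both steady-state replicates 1, the estimates were the same. In that fit 8 of 10 genes had an unadjusted p under 0.05, where 12.0% of all genes did. Of the 10 genes 0 were called, where 0.0733% of all genes were, and Dusp1 had the smallest adjusted p, 0.158. Those arrays were left out for their high values of these genes, so the shares of all genes are no like comparison.

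The macrophage list averaged 4.77 and 5.04 in aged transplanted HSCs, against 5.54 and 5.40 in young transplanted HSCs, with 6 and 5 of its 10 genes below the 25th percentile in the aged arrays against 4 and 5 in the young arrays. One of its members, Csf1r, which macrophages need for survival signals from CSF-1, fell by 3.61 (SE 0.56, adjusted p 0.0206). The erythroid anion exchanger Slc4a1 rose by 2.26 (SE 0.44, adjusted p 0.0410). The HSC marker Esam fell by 1.12 (SE 0.22, adjusted p 0.0410), and each was the 1 called gene of its list. The medians of their lists were near 0, at 0.03 (erythroid) and 0.10 (HSC markers), where that of all genes was -0.02. The macrophage median was -0.25, and that of the neutrophil list was 0.38 with 0 of 10 genes called. The part of such cells in the immediate early levels was not tested. Fewer cells of a type and less RNA per cell cannot be told apart in these bulk samples. Of 34 other immediate early genes 0 were called in limma and 3 had an unadjusted p under 0.05, and of 20 upstream factors 1 fell, Mrtfa, a coactivator of serum response factor (-1.20, SE 0.22, adjusted p 0.0321).

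The 2 age effects were then compared with each other. The aged minus young difference in transplanted HSCs minus that in steady-state HSCs was below 0 for all 10 genes, with a median of -1.54. In limma 0 of 10 were called, where 0.125% of genes were, and 0 had an unadjusted p under 0.05, where 9.73% did. Zfp36 had the estimate farthest from 0, at -2.19 (SE 1.32, 95% interval -5.12 to 0.74, adjusted p 0.656), followed by Jun at -1.84 (SE 1.11, adjusted p 0.656). Fos, with the smallest p of the 10, stood at -1.29 (SE 0.60, adjusted p 0.536). Without both steady-state replicates 1, 9 of 10 genes had an unadjusted p under 0.05, all but Fosb, and 0 were called. Of all genes 6.19% had such a p. This share is no like comparison, since those arrays were left out for their high values of these genes. In that fit Zfp36 stood at -2.22 (SE 0.51, adjusted p 0.479), and 0.00733% of all genes were called.

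**Figure D3:**
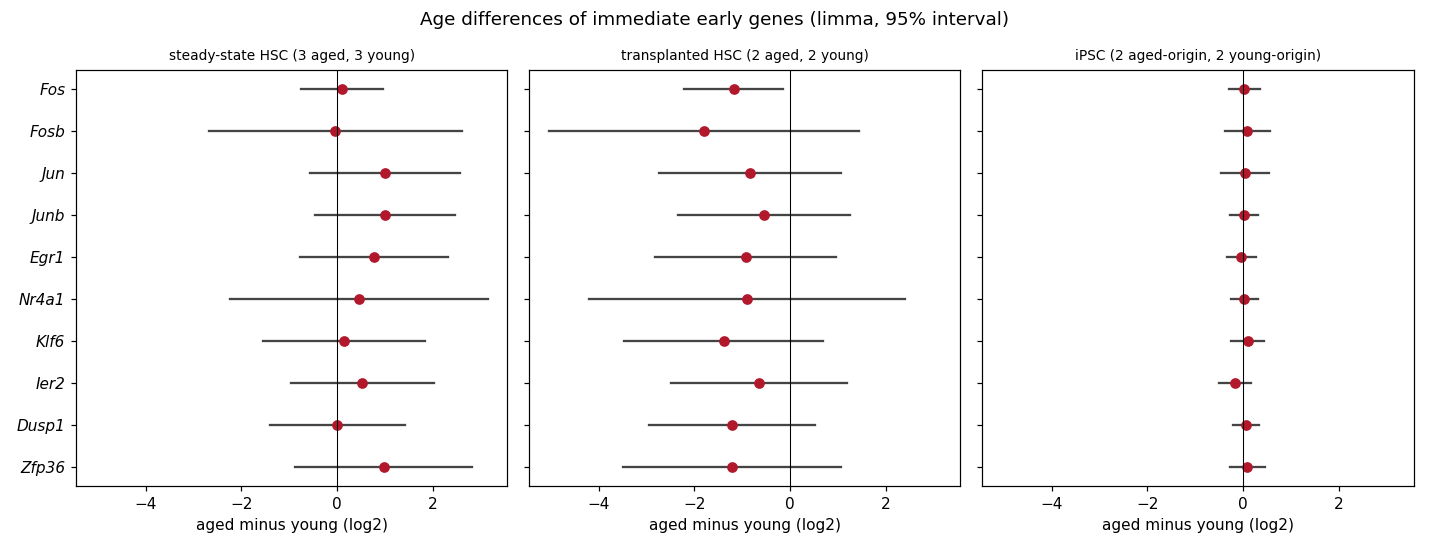
Aged minus young difference (horizontal axis, log2) of the 10 genes with its 95% interval from limma, in steady-state HSCs, transplanted HSCs and iPSCs. The transplanted estimates are all below 0 and most intervals in both HSC settings span 0, while the iPSC estimates lie between -0.17 and 0.10.

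Transplanted HSCs differed from steady-state HSCs at 5 of the 10 genes, all of which fell. That share equals the background, since 50.1% of all genes fell and 69.9% changed in either direction, and the technical measures of the transplanted arrays given above moved with this comparison. Their part in the result was not tested, and array processing and transplantation cannot be told apart here. The median of the 10 genes was -1.23 and that of all genes -0.46. Without both steady-state replicates 1 these medians were -0.53 and -0.44, with 4 of the 10 genes above 0. The estimates weight both ages equally.

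Ier2 read 6.88 and 6.48 in aged and 7.59 and 7.08 in young transplanted HSCs, against 9.85 to 12.39 in aged and 9.48 to 11.65 in young steady-state HSCs, and fell by 3.57 (SE 0.53, adjusted p 0.000159). Nr4a1 read 5.0 and 5.14 in aged and 5.46 and 6.47 in young transplanted HSCs, against 7.07 to 11.62 in steady-state HSCs, and fell by 3.12 (SE 0.96, adjusted p 0.0139), a call lost with array quality weights (adjusted p 0.148) and with a pseudocount of 64 (adjusted p 0.0615). No transplanted array reached the lowest steady-state array for either gene. Junb fell by 2.52 (SE 0.52, adjusted p 0.00143) to 3.90 to 5.13 in transplanted HSCs, against 5.69 to 8.95 in steady-state HSCs. Its transplanted values lie near the 25th percentile of genes there, 4.51 in aged and 4.49 in young cells, so the level is close to what dim probe sets give.

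Fos fell by 1.61 (SE 0.30, adjusted p 0.000777), with 11.08 to 13.04 in transplanted HSCs, against 13.07 to 14.32 in steady-state HSCs. Dusp1 fell by 1.46 (SE 0.50, adjusted p 0.0244), with 10.16 to 11.82 in transplanted HSCs, against 11.44 to 13.78 in steady-state HSCs, and its ranges overlapped. The call of Dusp1 was lost without replicate 1 or replicate 2 of the aged transplanted group (adjusted p 0.0533 and 0.0676), replicate 2 of the young transplanted group (adjusted p 0.0696) or with array quality weights (adjusted p 0.203). Lower values without overlap were found for 4 of 10 genes, where 40.2% of all genes had them.

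The AP-1 subunits did not share an estimate. Fosb, at 8.96 to 11.56 in transplanted HSCs against 6.76 to 11.89 in steady-state HSCs, had an estimate of 1.33 (SE 0.94, adjusted p 0.226). Without the aged steady-state replicate 1 it was 2.07 (SE 0.66, adjusted p 0.0197), and without both steady-state replicates 1 it was 2.59 (SE 0.36, adjusted p 0.000460). Jun stood at -0.53 (SE 0.55, adjusted p 0.415) and at 0.22 (SE 0.24, adjusted p 0.448) without them. Without those arrays the Fosb estimate was above 0, while Fos and Junb fell by 1.29 and 1.84. The arrays were left out for their high values of these genes, which raises the estimates and lowers the spread by construction. The estimates and adjusted p without both arrays are therefore a description.

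Zfp36 stood at -0.07 (SE 0.66, adjusted p 0.931) with all arrays, and at 0.82 (SE 0.25, adjusted p 0.0219) without both steady-state replicates 1. Egr1 stood at -1.0 (SE 0.55, adjusted p 0.126) and at -0.28 (SE 0.24, adjusted p 0.341) without them. The 5 genes that fell with all arrays also fell without those arrays, Ier2 by 2.85 and Nr4a1 by 1.78. In that fit 7 of 10 genes were called, where 62.9% of all genes were. The arrays left out were chosen for their high values of these genes. The estimates and adjusted p of that fit are therefore a description, and this share is no like comparison.

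**Figure D4:**
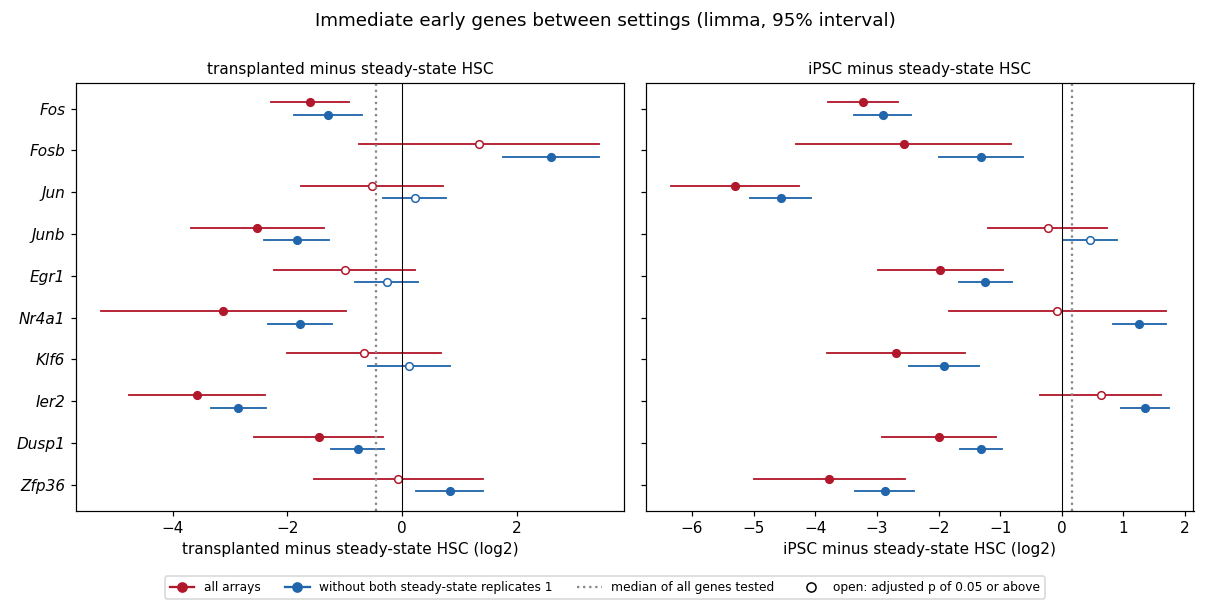
Difference from steady-state HSCs (horizontal axes, log2) of transplanted HSCs (left) and iPSCs (right) with 95% intervals from limma, with all arrays and without both steady-state replicates 1. Filled points have an adjusted p under 0.05, and the dotted line is the median of all genes tested with all arrays, -0.46 on the left and 0.17 on the right.

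Klf6 could not be given 1 direction, since its 5 probe sets disagreed. The probe set 1418280_at read 11.21 and 10.55 in aged and 11.51 and 11.06 in young transplanted HSCs, against 7.70, 5.66 and 4.90 in aged and 7.81, 4.97 and 5.29 in young steady-state HSCs. It rose by 5.03 (SE 0.63, adjusted p 4.85e-05 over all probe sets). The probe set 1447448_s_at read 8.41 and 6.38 in aged and 9.13 and 8.54 in young transplanted HSCs, against 9.38 to 12.05 in steady-state HSCs, and fell by 2.33 (SE 0.65, adjusted p 0.00875). The brightest probe set, 1433508_at, stood at -0.66 (adjusted p 0.349), and the 2 others were not called. The 2 probe sets of Jun stood at -0.53 and -0.23 and neither was called. Positions of the probes within the transcripts were not used here.

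**Figure D5:**
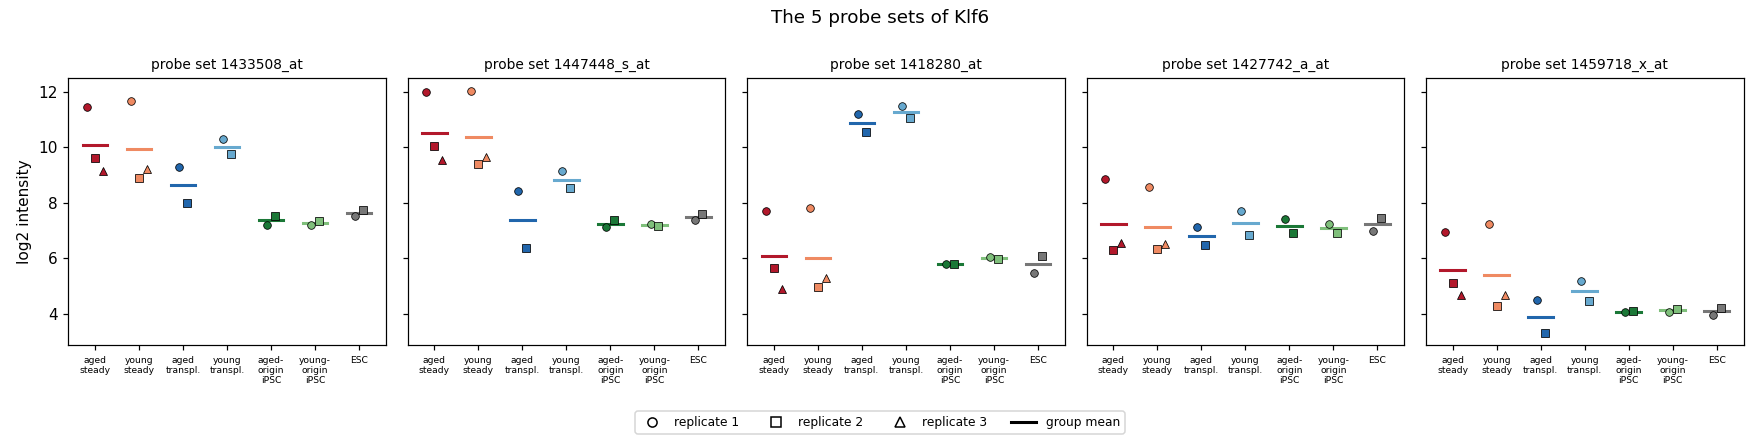
Log2 intensity (vertical axis, shared) of each of the 5 Klf6 probe sets on all 16 arrays by group. Probe set 1418280_at lies at 10.55 to 11.51 in transplanted HSCs and at 4.90 to 7.81 in steady-state HSCs, and 1447448_s_at lies at 6.38 to 9.13 and at 9.38 to 12.05.

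Of 34 other immediate early genes tested, 22 fell and 2 rose, where 50.1% of all genes fell and 19.8% rose. Their median was -1.09, against -0.46 for all genes, and whether the list differs from all genes was not tested. Socs3, a feedback inhibitor of cytokine signalling, fell by 4.54 (SE 0.47, adjusted p 1.19e-05), Csrnp1, an AXIN1-induced nuclear protein, by 2.28 (SE 0.25, adjusted p 1.52e-05), Nfkbia, the NF-κB inhibitor, by 2.16 (SE 0.19, adjusted p 4.15e-06) and Zfp36l2, a relative of Zfp36, by 1.32 (SE 0.13, adjusted p 7.32e-06). Of 20 upstream kinases and factors, 13 fell and 2 rose. The kinase Map2k1, which activates ERK, fell by 2.32 and the serum response factor coactivator Mrtfb fell by 2.55 (SE 0.18 and 0.20, adjusted p 1.40e-06 and 1.49e-06). The ERK-activated kinase Rps6ka3 fell by 1.81 and the JNK kinase Mapk8 by 1.89 (SE 0.17 and 0.21, adjusted p 5.14e-06 and 1.67e-05). Against the same shares of all genes, 8 of 11 heat shock genes fell and 2 rose, and all 11 HSC markers fell.

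In iPSCs the 10 genes varied little between arrays, and no difference by origin was detected. Jun read 6.55 and 6.21 in aged-origin iPSCs, against 6.56 and 6.14 in young-origin iPSCs. Fos read 10.32 and 10.53 in aged-origin iPSCs, against 10.54 and 10.27 in young-origin iPSCs. Egr1 read 10.32 and 10.25 in aged-origin iPSCs, against 10.19 and 10.45 in young-origin iPSCs. The origins overlapped for all 10 genes. None of the 10 was called, where 0.00733% of all genes were, and 0 had an unadjusted p under 0.05, where 4.98% did. Estimates ran from -0.17 for Ier2 (95% interval -0.51 to 0.17) to 0.10 for Klf6 (interval -0.25 to 0.45), and no interval of the 10 went beyond -0.51 or 0.56.

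Against ESCs, the iPSCs had values below those of both ESC lines at several genes. Fos read 10.32 and 10.53 in aged-origin and 10.54 and 10.27 in young-origin iPSCs, against 11.07 and 11.16 in ESCs, a difference of -0.70 (SE 0.12, adjusted p 0.0987). Dusp1 read 10.42 and 10.32 in aged-origin and 10.27 and 10.32 in young-origin iPSCs, against 10.93 and 10.96 in ESCs, a difference of -0.61 (SE 0.10, adjusted p 0.0887). All 4 iPSC arrays were below both ESC arrays for these genes. None of the 10 was called, where 0.110% of all genes were, while 5 had an unadjusted p under 0.05, where 12.7% of all genes did, and 5 were lower without overlap, where 14.1% of all genes were. Both Fos and Dusp1 were called under 3 of the alternatives tried. The fibroblast and feeder list averaged 5.25 to 5.76 in iPSCs, against 5.72 to 5.81 in ESCs, and its part in these differences was not tested.

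Against steady-state HSCs, iPSCs had lower levels of 7 of the 10 genes, where 34.7% of all genes fell and 76.4% changed in either direction. Jun averaged 6.38 ± 0.24 in aged-origin and 6.35 ± 0.30 in young-origin iPSCs (SD, n = 2 each), against 12.17 ± 1.22 in aged and 11.16 ± 1.39 in young steady-state HSCs (SD, n = 3 each), and fell by 5.30 (SE 0.49, adjusted p 1.77e-07 in limma). Zfp36 read 6.96 to 7.39 in iPSCs, against 9.35 to 13.15 in steady-state HSCs, and fell by 3.77 (SE 0.57, adjusted p 3.12e-05). Fos read 10.27 to 10.54 in iPSCs, against 13.07 to 14.32 in steady-state HSCs, and fell by 3.23 (SE 0.26, adjusted p 4.71e-08). No iPSC array reached the lowest steady-state array for these genes.

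Klf6 fell by 2.69 (SE 0.52), Fosb by 2.56 (SE 0.81), Dusp1 by 1.99 (SE 0.43) and Egr1 by 1.97 (SE 0.47), with adjusted p from 0.000309 for Klf6 to 0.0106 for Fosb. For Klf6, 1447448_s_at and 1459718_x_at also fell, by 3.23 and 1.39, and 1418280_at and 1427742_a_at were not called. The second Jun probe set fell by 3.88. Without both steady-state replicates 1 the same 7 genes fell, Jun by 4.56 and Fosb by 1.31.

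The other 3 genes were not called. Ier2 read 10.94 to 11.38 in iPSCs, against 9.48 to 12.39 in steady-state HSCs, a difference of 0.63 (SE 0.46, adjusted p 0.223). Nr4a1 read 8.50 to 8.61 in iPSCs, against 7.07 to 11.62 in steady-state HSCs, a difference of -0.07 (SE 0.82, adjusted p 0.937). Junb read 6.66 to 6.84 in iPSCs, against 5.69 to 8.95 in steady-state HSCs, a difference of -0.23 (SE 0.45, adjusted p 0.648). Each of these iPSC ranges lay within the steady-state range.

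The calls of Ier2 and Nr4a1 depended on the high arrays. Ier2 was called at 1.02 without the aged steady-state replicate 1 (adjusted p 0.0187) and at 0.96 without the young one (adjusted p 0.0416). Without both, Ier2 stood at 1.35 (SE 0.17, adjusted p 2.42e-05), Nr4a1 at 1.26 (SE 0.20, adjusted p 0.000108) and Junb at 0.46 (SE 0.20, adjusted p 0.0557). In that fit 9 of 10 genes were called, where 72.6% of all genes were. The arrays left out were chosen for their high values of these genes, which raises these estimates and lowers the spread by construction. The estimates and adjusted p without both arrays are therefore a description, and this share is no like comparison.

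Of 37 other immediate early genes tested in this comparison, 14 rose and 16 fell, where 41.8% of all genes rose and 34.7% fell. Ccn2, a matricellular growth factor, rose by 5.48 (SE 0.12, adjusted p 4.47e-14) and Sgk1, a serum-induced kinase, by 3.41 (SE 0.22, adjusted p 4.35e-09). Zfp36l2 fell by 5.66 (SE 0.11, adjusted p 1.55e-14) and Fosl2, a further AP-1 subunit, by 4.79 (SE 0.26, adjusted p 5.28e-10). Of 20 upstream factors 14 fell and 2 rose, beside those same shares. The kinase Rps6ka3 fell by 4.37 and the ternary complex factors Elk4 and Elk3 by 4.19 and 3.08, and Nab1, a corepressor of Egr proteins, fell by 4.04. Of 11 heat shock genes 4 rose and 3 fell, so the list had no common direction.

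The order of the groups differed between genes. Fos was highest in aged steady-state HSCs (13.70 ± 0.55, n = 3) and lowest in young-origin iPSCs (10.40 ± 0.19, n = 2). Jun, on both probe sets, and Zfp36 were higher in every HSC array than in every iPSC and ESC array. For Klf6 this held on its brightest probe set and on none of the 4 others. Ier2 had another order, with ESCs highest (11.53 ± 0.04, n = 2) and aged transplanted HSCs lowest (6.68 ± 0.29, n = 2). Nr4a1 and Junb were also lowest in transplanted HSCs, at 5.07 ± 0.10 and 4.18 ± 0.39 in the aged group (SD, n = 2 each). Fosb was highest in young transplanted HSCs (11.21 ± 0.50, n = 2), and its steady-state ranges overlapped that group's. Neighbouring groups in these orders mostly overlapped, as aged and young steady-state HSCs did for all 10 genes and aged-origin and young-origin iPSCs did for all 10.

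Genes outside the set were ranked by how closely they followed the mean of the 10, as the mean absolute difference of centred log2 values. Over the 10 HSC arrays the closest were Atf3 at 0.35, Klf2 at 0.44, Nr4a2 at 0.45, Ppp1r15a at 0.48 and Ccn1 at 0.49, where the median of 13635 genes was 0.95. Over all 16 arrays the closest were Dusp6 at 0.42, Klf11 at 0.45, Herc3 and Ccrl2 at 0.47 and Clec4d at 0.48, where the median was 1.09. Fos alone was followed most closely by Dnajb9, at 0.26 over 16 arrays and 0.23 over the HSC arrays. The next over 16 arrays were H1f2 at 0.27, Tes at 0.29, Abhd5 at 0.31 and Cep97 at 0.33. The next over the HSC arrays were Pde12 at 0.26, Slc39a11 at 0.27, and Fbp1 and 4930423M02Rik at 0.29. Such a likeness reflects the difference between settings as well as between replicates.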

How the data were processed

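Each of the 16 samples was hybridised to 1 Affymetrix array, with cRNA made from total RNA of 10000 cells per sample, per the labels' protocols. The intensity values were used as deposited by the authors, and were linear, between 4.53 and 31493. Their summary and normalisation method was not given in the sources used here, and the table held no detection calls. The number of arrays per group limits the precision.

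Intensities were put on the log2 scale with no pseudocount. The platform's probe table named 34945 probe sets with 1 symbol and 932 with several. It did not list 9160, and 64 control probe sets were left out. Of 18193 genes, 18032 matched RefSeq. Each gene was represented by its brightest probe set over the 16 arrays. limma 3.58.1 (lmFit, eBayes; R 4.3.3) was fitted to the 13645 genes at or above the 25th percentile of mean log2 intensity, which kept all 10 genes described, with 10 HSC arrays (6 residual degrees of freedom), 6 iPSC and ESC arrays (3) or all 16 (9). Every adjusted p is Benjamini-Hochberg over all genes or probe sets of a fit, with calls under 0.05. The fits were tested on simulated data. Probe sets were also tested singly.

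Named in the text were all 10 genes, up to 4 called genes with the smallest p per comparison from each of 2 lists (other immediate early genes; upstream kinases and factors), and the 5 genes nearest in profile. Genes named outside this rule are said to be so, apart from Csf1r, Slc4a1, Esam and the examples Egr2 and Atf3, which were also chosen after their values were seen. The genes and lists were chosen with earlier results of these data known. Alternatives were quantile normalisation, median centring, other dim filters, averaged probe sets, eBayes with trend and robust set, array quality weights, other sets of arrays, a pseudocount of 64, a required 2-fold change, the replicate number as a block and each array left out. Leaving out both steady-state arrays of replicate 1, the block on the steady-state arrays alone and the crossed block were chosen after seeing the data.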

Additional observations from a re-analysis of the deposited data

How the results depend on the processing

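The counts of the 10 genes called (0 for each of the age differences, 0 for iPSCs against ESCs, 5 for transplanted and 7 for iPSCs against steady-state HSCs) moved by over 1.5 times in 7 cases. For iPSCs against ESCs, 2 genes, Fos and Dusp1, fell with the 50th percentile filter, with the intensity trend and robust prior, and with the pseudocount of 64 (adjusted p 0.00589 to 0.0415). For transplanted against steady-state HSCs, 3 genes were called with array quality weights, Nr4a1 (adjusted p 0.148) and Dusp1 (0.203) being lost, and Nr4a1 was also lost with the pseudocount (0.0615). With both steady-state replicates 1 left out, Zfp36 turned to 0.82 in that comparison and Nr4a1 to 1.26 in iPSCs against steady-state HSCs. Leaving out 1 array at a time gave 4 to 6 calls for transplanted and 7 to 8 for iPSCs against steady-state HSCs, and 0 to 0 in the other comparisons. The cause of these moves was not tested. Centring each array on its median moved the median of all genes in transplanted against steady-state HSCs to -0.66 (from -0.46) and that of the 10 to -1.44, with 5 calls.

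Same-numbered aged and young arrays deviated together at r = 0.11, -0.21 and 0.18 across 13635 genes in steady-state HSCs, -0.16 in transplanted HSCs and -0.05 in iPSCs, so the numbers were not taken to pair the samples. The 10 genes themselves were left out of this check. With the replicate block, 8 genes were called in transplanted against steady-state HSCs, and 8 with the transplanted numbers crossed. With that block 5 of the 10 had an unadjusted p under 0.05 by age in steady-state HSCs. By age in transplanted HSCs 9 did, and 10 did for the difference of the age effects. In the main limma fits these counts were 0, 1 and 0, and no share of all genes is set beside the block counts. On the 6 steady-state arrays alone, the block gave 2 calls by age, Jun (1.01, adjusted p 0.00886) and Junb (1.01, adjusted p 0.0241), and on all HSC arrays 0. There the block called Socs3 by age in steady-state HSCs (2.05, adjusted p 0.0224) and called none of Csf1r, Slc4a1, Esam and Mrtfa by age in transplanted HSCs. Counts over all genes moved too: by age from 38 to 613 around 161 in steady-state and from 0 to 1467 around 184 in transplanted HSCs, from 0 to 723 around 17 for their difference, and from 7 to 66 around 15 for iPSCs against ESCs. With a 2-fold change required, 5634 of 9534 genes were counted in transplanted and 5810 of 10429 in iPSCs against steady-state HSCs.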
